A study of Mus musculus with 72 samples.

Results

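The question here is whether 21 days of high-fat feeding changed liver gene expression differently in C57BL/6N mice than in C57BL/6J mice, 2 closely related substrains of the same inbred mouse. The quantity examined was a difference of differences, the high-fat diet (HFD) effect in B6N minus the HFD effect in B6J, computed for each of 19938 genes that had a probe set with a single gene symbol. It rests on 31 of the 72 liver arrays of the study, chosen by their labelled strain and diet. All 4 groups were single-housed, randomly fed, wild-type males. B6N HFD (8 arrays) were C57BL/6NTac mice aged 17 weeks on HFD for 21 days, and B6N control (8 arrays) were C57BL/6NTac mice aged 15 to 17 weeks. B6J HFD (7 arrays) were C57BL/6J mice aged 17 weeks on HFD for 21 days, and B6J control (8 arrays) were C57BL/6J mice aged 15 to 17 weeks. The controls carry the treatment label none, while the protocol speaks of a low-fat diet, so what every control ate is not settled. Age went partly with diet in both substrains. Other strains in the study (129P2/OlaHsd and C3HeB/FeJ) were used here only to share the estimate of spread and to choose a set of diet genes by their effects in other strains.

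A fatty diet raises the flow of fatty acids into hepatocytes. Fatty acids and their derivatives bind the nuclear receptor PPAR-alpha, which turns on genes for fatty acid uptake, mitochondrial and peroxisomal oxidation, ketone body synthesis and the coating of lipid droplets. Cytochrome P450 genes of the Cyp2b family answer to another nuclear receptor, CAR, and in mice Cyp2b9 and Cyp2b13 are also set by the pattern of growth hormone secretion, with higher expression in females. C57BL/6J mice carry a deletion within Nnt, the mitochondrial transhydrogenase gene, that C57BL/6N mice lack.

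The arrays carried the marks of liver and of their labelled substrain. The mean log2 signal of 13 hepatocyte markers lay between 12.06 and 12.49 on every one of the 31 arrays, while array medians over all probe sets lay between 4.51 and 4.67. Nnt averaged 9.41 ± 0.26 in B6N HFD livers (SD, n = 8) and 9.02 ± 0.37 in B6N control livers (n = 8). It averaged 8.11 ± 0.16 in B6J HFD livers (n = 7) and 7.88 ± 0.15 in B6J control livers (n = 8). B6N therefore lay above B6J on both diets, and the diet effect on Nnt differed by 0.17 (95% interval -0.33 to 0.67). Arrays of a group differed in 2 further ways. The leading component of their deviations from the group means, 29.4% of the residual variance, divided the arrays into a set of 3 B6N HFD, 4 B6N control, 5 B6J HFD and 4 B6J control arrays and a set of 5, 4, 2 and 4 arrays in the same order. The sets follow the replicate numbers: the first held replicates 1 to 4 of both control groups, 1 to 5 of B6J HFD and 1 to 3 of B6N HFD. No label names a batch. Genes of the pancreatic acinar cell, which makes digestive enzymes, had a mean log2 signal of 4.82 to 7.64 in B6N HFD livers and 4.60 to 6.32 in B6N control livers. The same 18 genes reached from 4.76 to 10.2 in B6J HFD livers and from 4.92 to 10.9 in B6J control livers, with 3 B6J arrays above 9. In whole liver, fewer cells of a type and less RNA per cell cannot be told apart.

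No gene passed the test for a different diet response in the 2 substrains. In the limma fit, 0 of 19938 genes (0%) had a Benjamini-Hochberg adjusted p under 0.05 for the difference of effects, and 608 (3.05%) had an unadjusted p under 0.05. Of these, 273 genes (1.37%) had the more positive effect in B6N and 335 (1.68%) the more negative one. The difference of effects had a median standard error (SE) of 0.15 on the log2 scale, and its 95% interval reached a median of 0.30 to either side, a 1.23-fold ratio. For 17015 genes (85.3%) the interval stayed within a 1.5-fold difference of the diet effects in either direction. For 244 genes (1.22%) it reached beyond 2-fold; 45 of these intervals left out 0. These intervals are not adjusted for the number of genes.

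Both substrains had genes that answered the diet, and B6N had more calls. In B6N, 127 genes (0.637%) rose and 56 (0.281%) fell on HFD at an adjusted p under 0.05. In a fit of the 31 B6 arrays with the replicate number as a block, the B6N total of 183 was 311 (206 up, 105 down). These 311 held 176 of the 183. The block was shared by all 4 groups, so it does not pair the B6N arrays alone. In B6J, 26 genes (0.13%) rose and 33 (0.166%) fell. The B6J total of 59 became 29 without the 3 arrays of highest acinar signal and 38 without B6J control replicate 5. With the array set as a block the totals were 390 in B6N and 122 in B6J. The array sets come from the deviations of these same arrays, so that block takes out spread by construction and tends to raise the calls. A total of 45 genes were called in both, which is 24.6% of the B6N calls and 76.3% of the B6J calls, and all 45 moved the same way. The counts are not a test of a difference. Of the 138 genes called in B6N and not in B6J, 132 had the same sign in B6J, and 51 had an unadjusted p under 0.05 for the difference itself. Their median change was 0.56 in B6N and 0.29 in B6J, both read in the B6N direction, and they were chosen by their B6N values. The 14 genes called in B6J and not in B6N all had the same sign in B6N, with a median change of 0.34 in B6N and 0.59 in B6J.

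**Figure D1:**
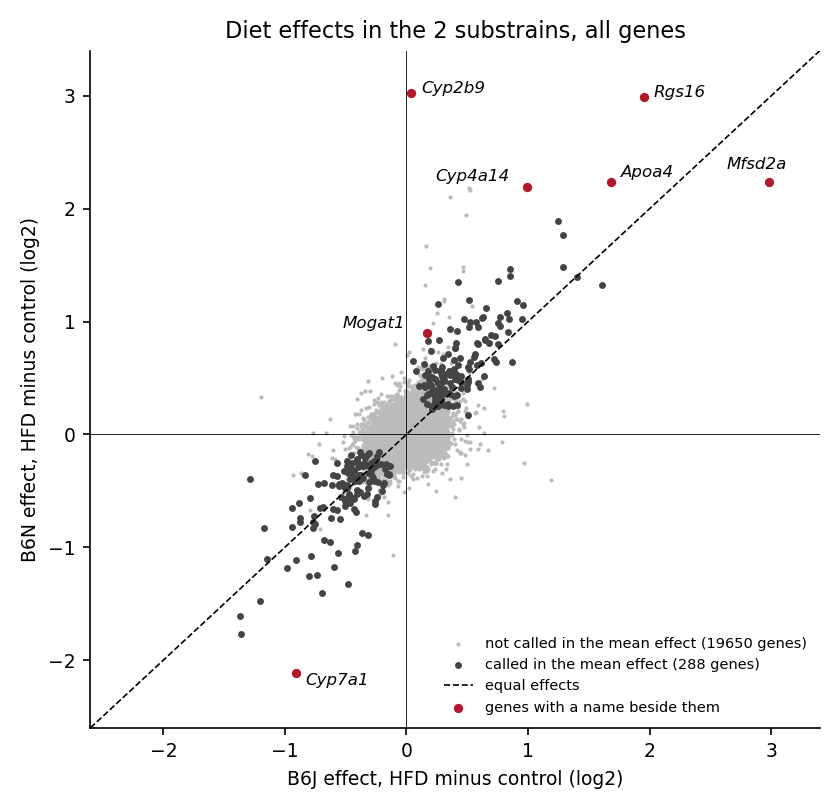
Diet effect of each of the 19938 genes in B6N (vertical axis) against B6J (horizontal axis), both as HFD minus control on the log2 scale, with the line of equal effects dashed. Dark points are the 288 genes called in the mean effect of both substrains, and Cyp2b9 stands apart at 3.02 in B6N and 0.04 in B6J.

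Cyp2b9, a cytochrome P450 that hydroxylates steroids, had the largest difference of effects. Its log2 signals in B6N HFD livers were 8.05, 8.64, 6.63, 5.30, 9.48, 8.62, 6.91 and 3.43. In B6N control livers they were 4.39, 5.65, 3.69, 4.10, 3.38, 4.29, 4.01 and 3.35. In B6J HFD livers they lay between 3.04 and 3.52 (median 3.43, n = 7) and in B6J control livers between 3.12 and 3.44 (median 3.30, n = 8). High signal was thus seen in B6N HFD livers, where 7 of 8 arrays lay above the median of all array medians (4.57) and 6 of 8 lay above every B6N control. One B6N HFD liver, replicate 8, was at the level of the lowest controls, and every B6J liver on either diet lay below the array medians, where a signal cannot be told from background.

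The fitted change of Cyp2b9 was 3.02 in B6N (limma adjusted p = 2.16e-07) and 0.04 in B6J. The difference was 2.98 (SE 0.58, 95% interval 1.82 to 4.15), a 7.90-fold ratio of the fold changes whose size is uncertain because the B6J levels are at background. Its adjusted p was 0.0523, the smallest of all genes and short of the threshold, and the next smallest was 0.882. The spread was unequal, with an SD of 2.01 in B6N HFD livers, 0.73 in B6N control livers, 0.17 in B6J HFD livers and 0.13 in B6J control livers, against 0.85 in the pooled fit. With the spread taken from the 31 B6 arrays alone the adjusted p was 0.957, and with array weights it was 0.048. It was 1.03e-05 without B6N HFD replicate 8, 0.006 without B6N HFD replicate 4 and 0.0108 without B6N control replicate 2. The difference was 3.34 and 2.82 within the 2 sets of arrays. Between livers on HFD, B6N exceeded B6J by 3.80 (adjusted p = 4.02e-09), while between controls the difference of 0.81 was not called (adjusted p = 0.726).

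Cyp2b13 and Cyp2b10, relatives of Cyp2b9 on chromosome 7, had differences of 0.33 and 0.60. The promoters of Cyp2b9 and Cyp2b13 are shown because the genes are near copies upstream: 298 of 300 bases (99.3%) match, while each shares 223 bases (74.3%) with Cyp2b10 after alignment. The sequences are those of RefSeq on GRCm38.p6, a C57BL/6J assembly, in a window of 300 bases around the start site. They lie at chr7:26173159-26173458 (plus strand) for Cyp2b9 and chr7:26061245-26061544 (plus strand) for Cyp2b13. Capitals mark the bases that differ.
Cyp2b9: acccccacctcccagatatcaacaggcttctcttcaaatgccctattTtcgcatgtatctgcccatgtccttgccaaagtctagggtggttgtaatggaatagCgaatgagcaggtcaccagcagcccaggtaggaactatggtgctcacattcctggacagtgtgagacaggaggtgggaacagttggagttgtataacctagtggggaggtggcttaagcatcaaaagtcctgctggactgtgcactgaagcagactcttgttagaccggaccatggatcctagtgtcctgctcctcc
Cyp2b13: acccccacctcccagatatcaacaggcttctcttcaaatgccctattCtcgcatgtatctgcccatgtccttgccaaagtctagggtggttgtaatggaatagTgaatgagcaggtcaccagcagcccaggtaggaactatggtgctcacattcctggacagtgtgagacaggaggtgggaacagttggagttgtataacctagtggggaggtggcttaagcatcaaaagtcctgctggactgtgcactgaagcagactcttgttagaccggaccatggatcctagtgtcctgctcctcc
Counted from the first base shown, the differences are T48C and C104T, with the Cyp2b9 base first. Both windows hold the letters AGGTCA, a nuclear receptor half-site, from base 113 to base 118 on the strand shown. That motif, searched on both strands, is in 5340 of 32851 RefSeq promoters of the same length (16.3%). The windows of Cyp2b9, Cyp2b13 and Cyp2b10 held neither TTCNNNGAA, the core of a STAT site (8.3% of promoters), nor TATAAA (13.6%). A match is a description of letters and not a bound site, and the C57BL/6N sequence is not shown.

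Cyp2b13 had log2 signals of 2.96 to 4.16 in B6N HFD livers (median 3.30) and 2.85 to 3.17 in B6N control livers (median 3.0). Its signals were 2.86 to 3.20 in B6J HFD livers (median 3.06) and 2.86 to 3.33 in B6J control livers (median 2.94). All of these lay below the array medians, with 6 of 8 B6N HFD arrays above every B6N control. The difference of effects had an interval of 0.02 to 0.64 and was not called. Cyp2b10, the family member most used as a reporter of CAR activity, had signals of 3.89 to 5.99 in B6N HFD livers, 4.12 to 5.02 in B6N control livers, 3.58 to 4.39 in B6J HFD livers and 4.24 to 4.83 in B6J control livers. The interval of its difference was -0.03 to 1.23, with effects of 0.18 in B6N and -0.42 in B6J, neither called. The group medians of Cyp2b10, from 4.065 (B6J HFD) to 4.45 (B6J control), also lay below the array medians. Probe sets of close relatives can share signal, so these values are not independent.

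Other genes were ranked by their correlation with Cyp2b9. The 5 genes with the highest Pearson correlation with it over the 31 arrays were Mogat1 (0.88), Slc22a27 (0.82), Vldlr (0.82), Crat (0.81) and Anxa2 (0.80). These values describe arrays that share groups, so a difference between groups raises them. Within the 8 B6N HFD arrays alone the correlations were 0.85, 0.86, 0.66, 0.95 and 0.75, and over the other 23 arrays they were 0.29, 0.49, 0.40, 0.14 and -0.01, in the same gene order. In all 5 genes the lowest B6N HFD array was replicate 8, the one with the lowest Cyp2b9. The genes were chosen for their correlation over arrays that include these 8, so the values within B6N HFD follow partly from the choice.

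Mogat1 makes diacylglycerol from monoacylglycerol. Its log2 signals in B6N HFD livers were 4.37, 5.32, 4.14, 3.95, 5.22, 4.58, 3.85 and 3.63, against 3.22 to 3.76 in B6N control livers (median 3.46). In B6J HFD livers they were 3.24 to 3.89 (median 3.55), against 3.04 to 3.82 in B6J control livers (median 3.33). Most B6N HFD arrays, 7 of 8, lay above every B6N control, while only 2 of 7 B6J HFD arrays lay above every B6J control. Mogat1 rose by 0.90 in B6N (adjusted p = 1.32e-05), its B6J effect was 0.17, and the difference of 0.72 (0.32 to 1.13) was not called. All B6N control and B6J arrays lay below the array medians, where a signal cannot be told from background. The B6N HFD median (4.26) lay below them too, so the size of these effects is uncertain.

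Crat, the carnitine acetyltransferase that exports acetyl groups, had log2 signals of 8.16 to 9.24 in B6N HFD livers and 7.44 to 8.33 in B6N control livers. In B6J they were 7.76 to 8.72 in HFD livers and 7.33 to 8.13 in control livers. The effect was 0.94 in B6N and 0.36 in B6J, and the difference of 0.58 (0.06 to 1.1) was not called. Anxa2, a membrane-binding annexin, separated the diets on every array in both substrains, at 6.08 to 6.99 in B6N HFD livers against 5.19 to 5.90 in B6N control livers, and at 5.67 to 6.31 in B6J HFD livers against 5.24 to 5.56 in B6J control livers. It rose by 0.91 in B6N (adjusted p = 2.96e-09), and its B6J effect of 0.42 missed the threshold (adjusted p = 0.0728). Its difference was 0.50 (0.20 to 0.80). Vldlr, the very low density lipoprotein receptor, had a difference of 0.40 (0.07 to 0.73), and Slc22a27, a solute carrier of the organic anion transporter family, one of 0.52 (0.15 to 0.90). The group medians of Slc22a27 ran from 3.19 (B6J HFD) to 3.97 (B6N HFD), below the array medians, where a signal cannot be told from background. Those of Vldlr ran from 4.575 (B6J control) to 5.04 (B6N HFD), and only that of B6N HFD stood clear of the array medians. Cd36, the fatty acid translocase, was looked up after values were seen, and it correlated with Cyp2b9 at 0.75 over all arrays and had a difference of 0.44 (-0.33 to 1.2).

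**Figure D2:**
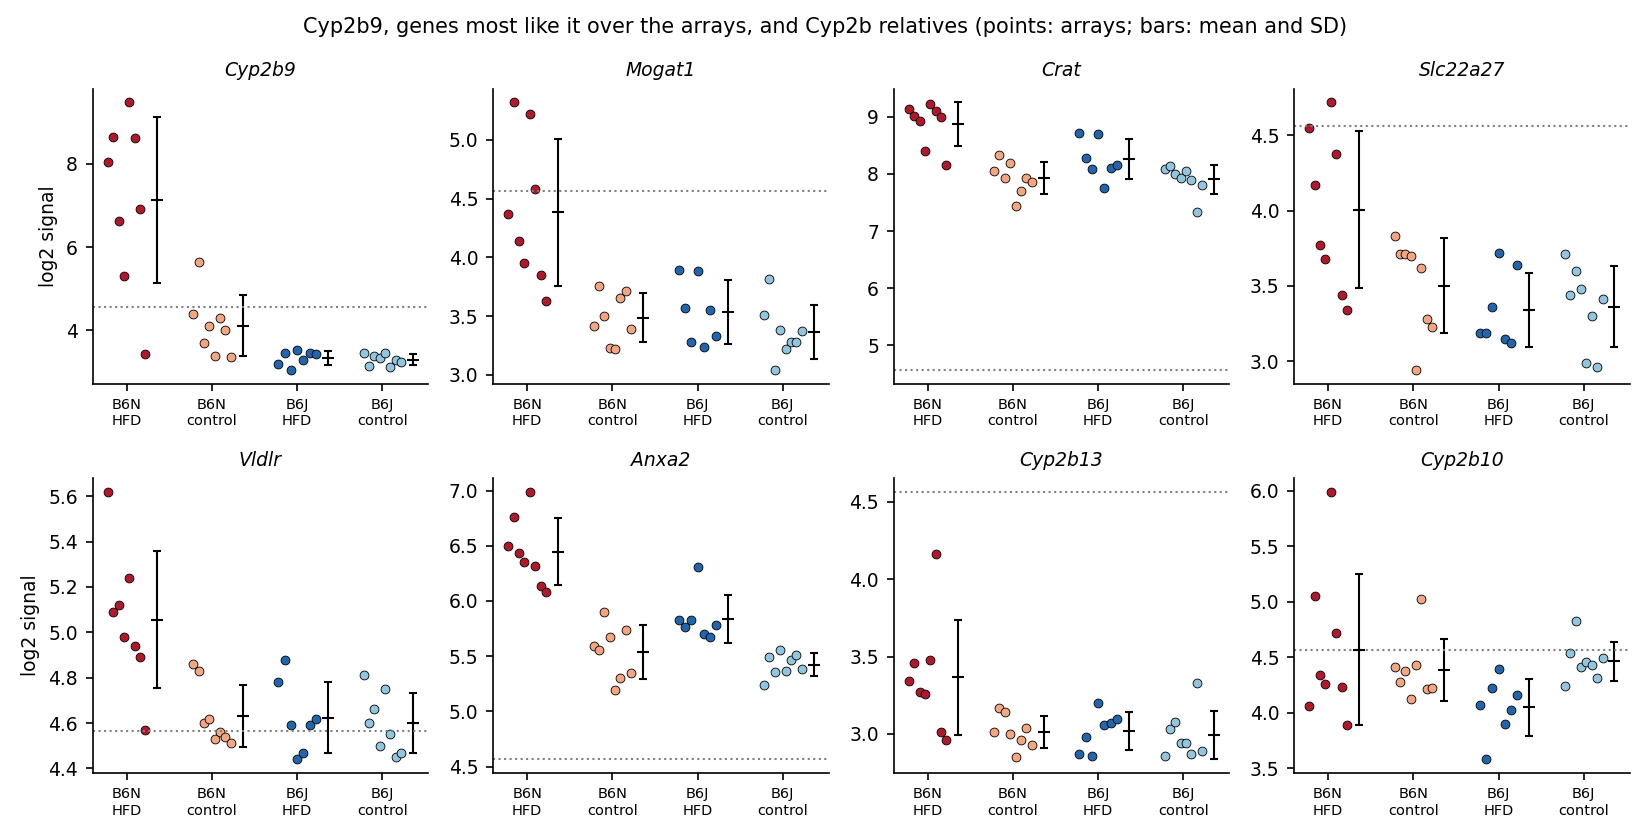
Log2 signal (vertical axis, scaled separately in each panel) on each of the 31 arrays for Cyp2b9, the 5 genes most like it, and Cyp2b13 and Cyp2b10, in B6N HFD, B6N control, B6J HFD and B6J control livers. Points are arrays in replicate order, bars give the mean and SD, and the dotted line is the median of the array medians (4.57). B6N HFD arrays spread widely for Cyp2b9, between 3.43 and 9.48, while all B6J arrays stay below it.

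The other genes with the smallest unadjusted p, 5 in each direction with Cyp2b9 and Mogat1, mostly had low signals, and none was called. Adamts13, the protease that trims von Willebrand factor, had signals of 4.86 to 5.29 in B6N HFD livers, 4.44 to 5.19 in B6N control livers, 4.52 to 5.16 in B6J HFD livers and 4.92 to 5.44 in B6J control livers. Its effects were 0.24 in B6N and -0.31 in B6J, a difference of 0.55 (0.27 to 0.84). Pdk3, a kinase that switches off pyruvate dehydrogenase, had a difference of -0.39 (-0.58 to -0.20) with signals between 3.18 and 3.82 on all arrays, below the array medians. The vomeronasal receptor Vmn1r171 (0.53), the odorant receptor Olfr1023 (-0.33), the notochord gene Noto (-0.47) and the genes Gm6815 (0.64), 4933402E13Rik (-0.54) and Pfpl (-0.41) also lay below the array medians in every group. For such genes a difference between groups cannot be told from a difference in background.

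Agreement of the diet effects between the substrains was low over all genes and high over diet genes chosen in other strains. Over all 19938 genes the effects correlated at a Pearson r of 0.41 and a Spearman rho of 0.16, and 10645 genes (53.4%) had the same sign. Over the 9969 brighter genes r was 0.52 and rho 0.28. Genes are not independent replicates. The r over all genes was 0.35 and 0.20 within the 2 sets of arrays described above, and 0.28 without the 3 arrays of highest acinar signal.

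A set of diet genes chosen on other mice gave a clearer comparison. In the mean HFD effect of 129P2/OlaHsd and C3HeB/FeJ, 262 genes (1.31%) were called, and the effects that chose them come from no B6 array, though the B6 arrays share in the estimate of spread behind the call. The choice rests on differences within each strain. Over these 262 genes the B6N and B6J effects correlated at r = 0.86 and rho = 0.81, and 237 (90.5%) had the same sign. The direction was that of these other strains for 238 genes in B6N and for 243 in B6J. Read in that direction, the median effect was 0.33 in B6N and 0.29 in B6J, and the median difference was 0.05, with 157 of 262 genes larger in B6N. In this set 92 genes were called in B6N and 40 in B6J. For 142 (54.2%) the interval of the difference stayed within 1.5-fold, against 85.3% of all genes. Among the 50 with the largest change in the other strains, r was 0.87, 49 had the same sign, the median effect was 0.95 in B6N and 0.73 in B6J, and 34 were larger in B6N. No p is given for these summaries, because the genes share arrays and controls.

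The genes with the largest shared change were compared one by one. In the mean of both substrains 157 genes (0.787%) rose and 131 (0.657%) fell, all 288 with the same sign in both, as selection on the mean favours. For 158 of the 288 (54.9%) the interval of the difference stayed within 1.5-fold, against 85.3% of all genes. Of the 10 largest rises and the 10 largest falls, all 20 were called in B6N and 14 in B6J, 15 had the larger effect in B6N, and 4 had an unadjusted interval of the difference that left out 0. For 3 of the 20 the interval stayed within 1.5-fold. None of the 20 differences was called.

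Mfsd2a, a transporter of lysophospholipids, rose by 2.24 in B6N and by 2.98 in B6J. Its log2 signals were 8.74 to 10.01 in B6N HFD livers (median 9.17) and 6.00 to 7.74 in B6N control livers (median 7.16). They were 8.66 to 9.72 in B6J HFD livers (median 9.26) and 5.37 to 7.22 in B6J control livers (median 6.12). Diets did not overlap in either substrain, and the difference of effects was -0.74 (-1.89 to 0.40). Apoa4, an apolipoprotein of triglyceride-rich particles, had signals of 10.66 to 12.10 in B6N HFD livers and 8.79 to 9.56 in B6N control livers. In B6J HFD livers they were 10.55 to 11.28 and in B6J control livers 9.03 to 9.50. Its groups did not overlap by diet either, and it rose by 2.24 in B6N and 1.68 in B6J, a difference of 0.56 (0.12 to 0.99).

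Cyp17a1, a steroid 17-hydroxylase, had nearly the same fitted rise, 1.40 in both, with a difference of -0.01 whose interval still ran from -0.59 to 0.57. Fabp2, which carries fatty acids inside the cell, rose by 1.33 in B6N and 1.61 in B6J. Rgs16, a brake on G protein signalling, rose by 2.99 in B6N (adjusted p = 1.90e-05), and its B6J effect of 1.95 missed the threshold (adjusted p = 0.0633). Its signals overlapped in B6J, at 6.67 to 8.55 in B6J HFD livers and 4.94 to 7.96 in B6J control livers, while in B6N they were 7.66 to 10.59 in HFD livers and 5.30 to 7.23 in control livers. Serpina7, the thyroxine-binding globulin, and Abcd2, a peroxisomal fatty acid importer, rose in both, with differences of 0.20 (-0.54 to 0.94) and 0.47 (-0.37 to 1.32).

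Among the genes that fell, 3 had a difference held within 1.5-fold by its interval. Gsta4, a glutathione transferase for lipid aldehydes, fell by 1.11 in B6N and 0.91 in B6J, a difference of -0.21 (-0.47 to 0.06). Ces2a, a carboxylesterase, fell by 1.19 in B6N and 0.98 in B6J, a difference of -0.20 (-0.52 to 0.11). Nat8f5, an N-acetyltransferase family member, fell by 1.11 in B6N and 1.14 in B6J, a difference of 0.04 (-0.45 to 0.52). In each of the 3 genes every HFD array lay below every control of its substrain.

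Cyp7a1, the rate-limiting enzyme of bile acid synthesis, and Acmsd, which diverts tryptophan breakdown away from NAD synthesis, had larger gaps. Cyp7a1 signals were 4.77 to 8.59 in B6N HFD livers (median 7.09) and 8.10 to 9.87 in B6N control livers (median 8.87). They were 7.98 to 9.57 in B6J HFD livers (median 8.52) and 8.12 to 10.70 in B6J control livers (median 9.76). In B6N 7 of 8 HFD arrays lay below every control, and in B6J 1 of 7 did. Cyp7a1 fell by 2.12 in B6N (adjusted p = 0.00047), its B6J effect was -0.91 (adjusted p = 0.789), and the difference was -1.21 (-2.36 to -0.06). Acmsd fell by 1.40 in B6N (adjusted p = 8.04e-08), its B6J effect was -0.69 (adjusted p = 0.112), and the difference was -0.71 (-1.23 to -0.19). One B6J HFD array held Acmsd at 8.03 where the other 6 lay between 6.43 and 6.83. Csad, an enzyme of taurine synthesis, Cyp2c55 and Cyp3a44, both drug-metabolising P450s, and Slc13a2, a citrate carrier, fell in both substrains, with differences of -0.24, -0.41, -0.27 and 0.34 whose intervals all held 0. The HFD medians of Cyp2c55 (4.40 in B6N, 4.37 in B6J) and Slc13a2 (3.75 in B6N, 3.90 in B6J) lay below the array medians. The size of these falls is therefore uncertain. Etnppl, a phospholyase of phosphoethanolamine, fell by 1.25 in B6N, and its B6J effect was -0.80 (adjusted p = 0.117).

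**Figure D3:**
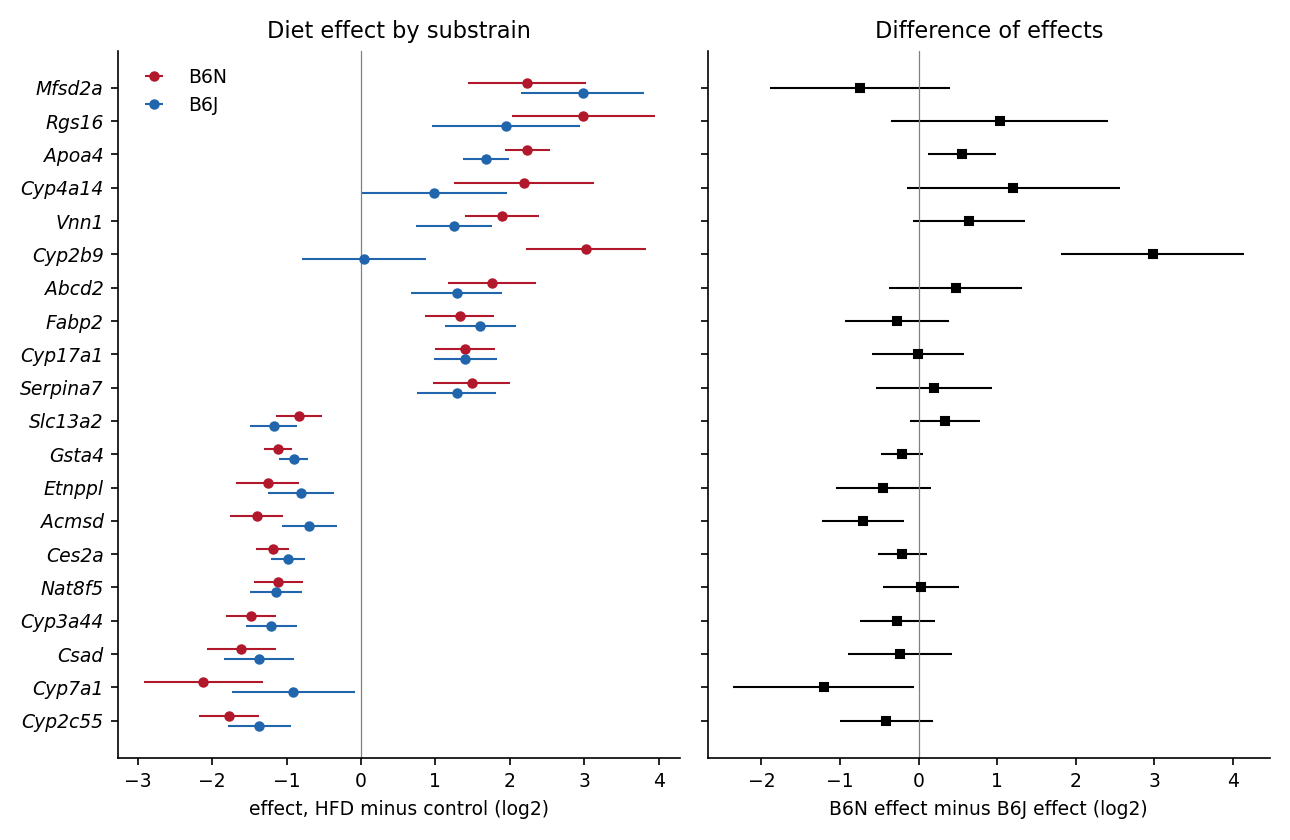
Left, HFD effect (log2) in B6N and B6J for the 10 largest rises and the 10 largest falls in the mean of both, with 95% intervals. Right, the B6N effect minus the B6J effect with its 95% interval. Cyp2b9 has the widest separation at 2.98, and the differences of Cyp17a1 and Nat8f5 lie near 0 at -0.01 and 0.04.

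Genes of fatty acid oxidation and ketogenesis leaned towards a larger effect in B6N. Of the 31 measured members of the list, 28 had a positive difference, with a median of 0.28, against 9782 of 19938 genes positive and a median of -0.003 over all genes. In B6N 20 members rose and 1 fell, in B6J 3 rose and none fell, and no difference was called, with 8 members at an unadjusted p under 0.05 (all more positive in B6N). Over all genes the shares were 0.637% up and 0.281% down in B6N, 0.13% up and 0.166% down in B6J, and 1.37% for an unadjusted difference more positive in B6N, and the same shares stand behind the counts of every list below. The mean log2 signal of the list was 9.77 to 10.02 in B6N HFD livers (median 9.86) and 9.0 to 9.62 in B6N control livers (median 9.30). It was 9.38 to 9.84 in B6J HFD livers (median 9.53) and 9.11 to 9.54 in B6J control livers (median 9.31). The diets thus stood apart on all B6N arrays and overlapped in B6J, and the controls of both substrains covered the same range. Genes of a pathway move together, so 28 of 31 is not 31 independent observations. The median difference was 0.25 and 0.36 within the 2 sets of arrays and 0.32 without the 3 arrays of highest acinar signal.

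The genes behind this count span the whole route of a fatty acid. Cpt1a, which admits long-chain acyl groups to mitochondria, rose by 0.99 in B6N (adjusted p = 0.00254), and its B6J effect was 0.75 (adjusted p = 0.165). Slc25a20, the carnitine carrier, rose by 0.51 in B6N, and its B6J effect was 0.21. Acadm and Acadl, the medium-chain and long-chain acyl-CoA dehydrogenases, rose by 0.43 and 0.55 in B6N, and their B6J effects were 0.19 and 0.28. Hadha, a subunit of the trifunctional protein, rose by 0.43 in B6N, and its B6J effect was 0.11.

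Of the list, 3 members rose in both substrains. Bdh1, which makes beta-hydroxybutyrate, rose by 0.81 in B6N (adjusted p = 1.6e-08) and by 0.41 in B6J (adjusted p = 0.0477), a difference of 0.40 (0.12 to 0.68). Fgf21, a liver hormone under PPAR-alpha, rose by 1.36 in B6N and by 0.75 in B6J, a difference of 0.61 (0.11 to 1.11). Vnn1, a pantetheinase that is a PPAR-alpha target, rose by 1.89 in B6N and 1.25 in B6J, a difference of 0.64 (-0.08 to 1.36).

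The Cyp4a genes, whose enzymes hydroxylate fatty acids at the omega end, included the 2 widest intervals of the list, those of Cyp4a14 and Cyp4a31. Cyp4a14 signals were 9.94 to 11.76 in B6N HFD livers (median 11.47) and 7.17 to 10.51 in B6N control livers (median 9.24). They were 8.91 to 11.04 in B6J HFD livers (median 10.09) and 7.16 to 10.78 in B6J control livers (median 9.31). The controls alone spanned over 3 log2 units in each substrain, and the difference of 1.21 ran from -0.15 to 2.56. Cyp4a10 and Cyp4a31 had differences of 0.68 (-0.03 to 1.39) and 0.92 (0.11 to 1.74), and their probe sets may share signal with Cyp4a14. Cyp4a12a, a male-biased relative, was the member that fell in B6N, with effects of -0.56 in B6N and -0.49 in B6J. Pdk4, which shuts off glucose oxidation in fasting, had effects of 0.13 in B6N and -0.63 in B6J, neither called.

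**Figure D4:**
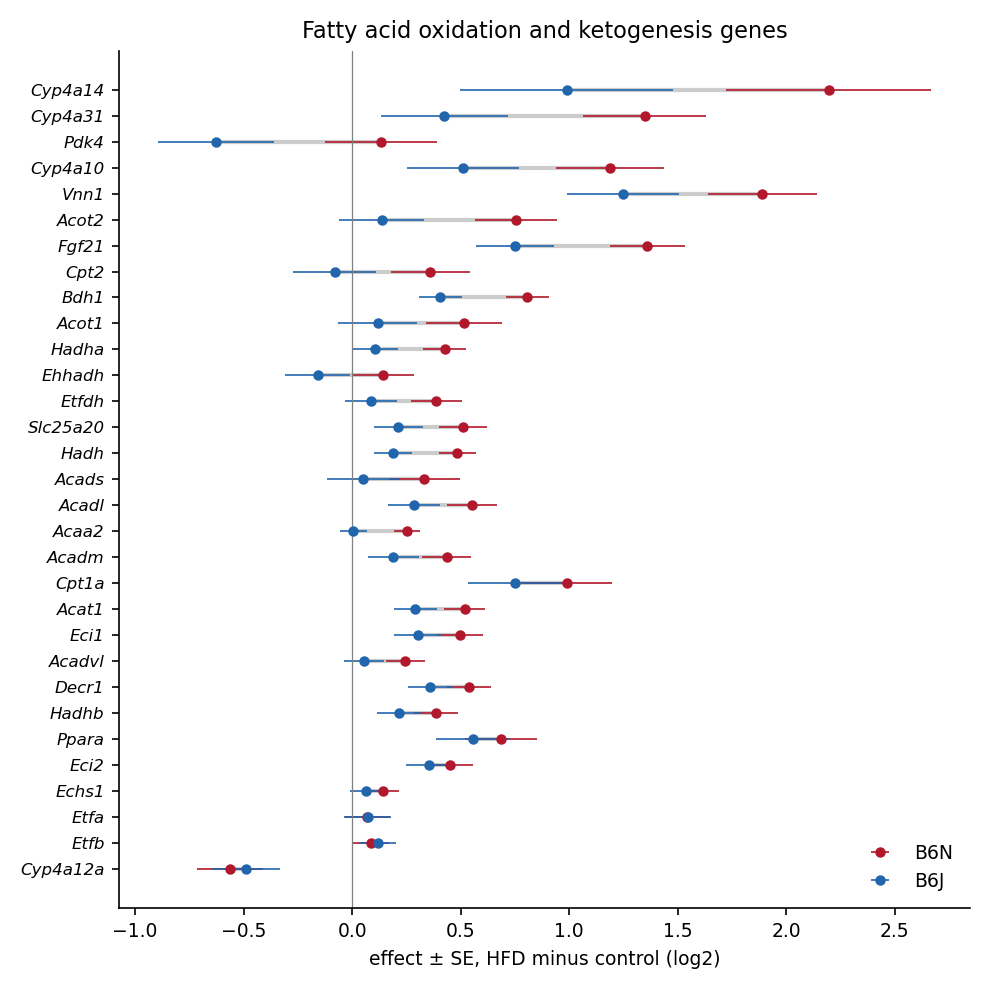
HFD effect ± SE (log2) in B6N and B6J for the 31 members of the oxidation and ketogenesis list, ordered by the difference of effects. The B6N point lies to the right of the B6J point in 28 genes. The SE bars of the 2 substrains overlap in some genes, such as Cpt1a and Ppara, and stand apart in others, such as Bdh1 and Fgf21. No difference was called.

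Peroxisomal, lipid droplet and triglyceride genes had the same lean with fewer calls. In the peroxisome list 16 of 19 differences were positive (median 0.17), 3 members rose in B6N (7 with the replicate block) and 2 in B6J. Pex11a, which promotes peroxisome division, rose by 0.80 in B6N and 0.59 in B6J. Hsd17b4, the bifunctional protein of peroxisomal oxidation, rose by 0.44 in B6N (adjusted p = 0.00946), and its B6J effect was 0.07. Among lipid droplet proteins 17 of 19 differences were positive (median 0.22), 3 rose in B6N (5 with the replicate block) and 1 in B6J. Plin2, the main droplet coat protein of hepatocytes, rose by 0.76 in B6N (adjusted p = 4.76e-06), and its B6J effect was 0.40 (adjusted p = 0.207). Cidec, which fuses droplets, rose by 1.04 in B6N, and its B6J effect was 0.63. Mgll, the monoacylglycerol lipase, rose in both by 1.02 and 0.85 (B6N, B6J), a difference of 0.18 (-0.24 to 0.60). Cidea, another droplet fusion protein, had the largest difference of the list, 0.47 (0.09 to 0.85), with neither effect called. Its group medians, from 3.55 (B6J HFD) to 4.15 (B6N HFD), lay below the array medians, where a signal cannot be told from background. The list mean lay at 7.69 to 8.04 in B6N HFD livers against 7.38 to 7.60 in B6N control livers, and at 7.44 to 7.78 in B6J HFD livers against 7.39 to 7.54 in B6J control livers, so that the B6N diets stood apart and the B6J diets overlapped. The peroxisome mean overlapped between diets in both substrains, at 9.40 to 9.71 in B6N HFD livers against 9.12 to 9.48 in B6N control livers, and at 9.27 to 9.58 in B6J HFD livers against 9.15 to 9.45 in B6J control livers.

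In fatty acid and triglyceride synthesis 22 of 26 differences were positive (median 0.14), with 4 members called in B6N and 2 in B6J, all rises. The median ran between 0.084 without B6J HFD replicate 3 and 0.221 without B6N control replicate 1, and was 0.212 without B6J HFD replicate 2. Fads2, a desaturase of polyunsaturated fatty acids, rose by 1.15 in B6N and 0.96 in B6J, and Elovl2, an elongase, rose by 0.51 in B6N and 0.64 in B6J. Elovl5, a further elongase, rose by 1.0 in B6N (adjusted p = 6.71e-06), and its B6J effect was 0.53 (adjusted p = 0.221). For the lipogenic enzymes Fasn, Acly and Scd1 the differences were 0.39 (-0.65 to 1.43), 0.03 (-0.76 to 0.82) and -0.23 (-0.82 to 0.36), intervals too wide to set the substrains apart or together. In uptake and lipoprotein handling 19 of 24 differences were positive (median 0.09), and 7 members rose in B6N against 3 in B6J. Angptl4, an inhibitor of lipoprotein lipase and a PPAR-alpha target, rose by 0.83 in B6N (adjusted p = 0.00914), with a B6J effect of 0.18 and a difference of 0.65 (0.10 to 1.21). Apoa5, an activator of lipoprotein lipase, had like effects of 0.42 in B6N and 0.37 in B6J, a difference of 0.05 (-0.25 to 0.34).

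**Figure D5:**
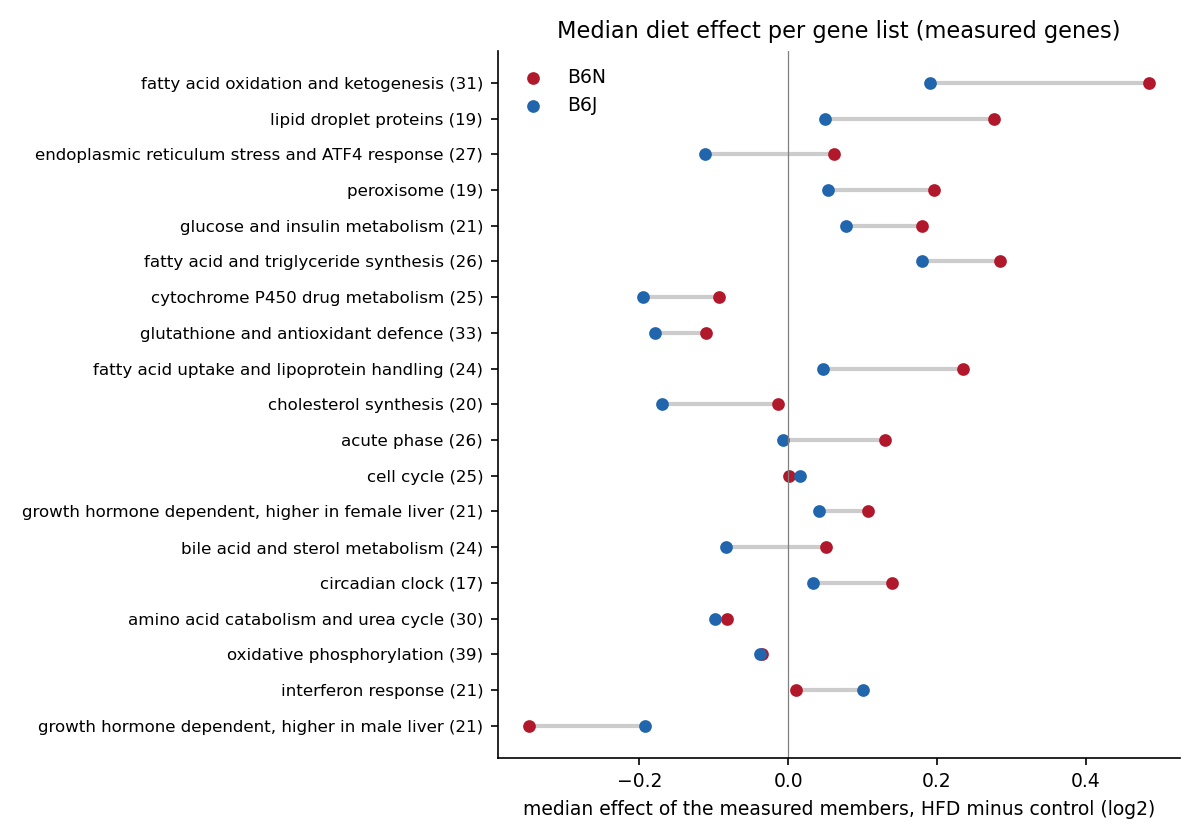
Median HFD effect (log2, horizontal axis) of the measured members of 19 gene lists in B6N and B6J, ordered from the top by the median difference; the number of measured members is in brackets. The largest gap towards B6N is in fatty acid oxidation and ketogenesis, at 0.48 in B6N and 0.19 in B6J, and oxidative phosphorylation has almost equal medians.

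Genes that growth hormone keeps higher in male livers had mostly negative differences. Their median effect was -0.35 in B6N and -0.19 in B6J, so the fall was larger in B6N. Only 3 of 21 differences were positive, with a median of -0.18, and 6 members fell in B6N against 1 in B6J. The median was -0.09 without B6N HFD replicate 5 and -0.12 without B6N HFD replicate 2 or B6N control replicate 5. C8b, a subunit of the complement attack complex, fell by 0.87 in B6N (adjusted p = 4.63e-06), its B6J effect was -0.36 (adjusted p = 0.568), and the difference was -0.51 (-0.88 to -0.13). Selenbp2, a selenium binding protein, fell by 1.05 in B6N, and its B6J effect was -0.56. Gstp1, a glutathione transferase, fell in both by 0.94 (B6N) and 0.68 (B6J), a difference of -0.26 (-0.63 to 0.12). Hsd3b5, a male-specific steroid dehydrogenase, had signals of 7.27 to 10.07 in B6N HFD livers, 9.72 to 10.45 in B6N control livers, 9.54 to 10.21 in B6J HFD livers and 9.42 to 10.29 in B6J control livers. In B6N 5 of 8 HFD arrays lay below every control, in B6J none did, and the difference of -0.56 (-1.26 to 0.13) was not called. Without B6N HFD replicate 5, which was at 7.27, it was -0.28. The female-biased list had 13 of 21 differences positive (median 0.05, and 0.007 to 0.090 without single arrays), and Cyp2b9 is one of its members. In that list 4 members rose and 1 fell in B6N, against 2 rises and 1 fall in B6J.

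Differences of bile acid and P450 genes had both signs, and none was called. In bile acid and sterol metabolism 12 of 24 differences were positive (median 0.03). Slco1a4, an organic anion carrier, fell by 0.98 in B6N (adjusted p = 0.00243), with a B6J effect of -0.41 and a difference of -0.57 (-1.17 to 0.02). Abcb4, the canalicular phospholipid exporter, rose by 0.71 in B6N (adjusted p = 0.00145), with a B6J effect of 0.34. Abcg5, which exports sterols into bile, had effects of 0.42 in B6N and 0.61 in B6J, called in neither (B6N adjusted p = 0.008 with the replicate block). In the P450 list 17 of 25 differences were positive (median 0.12), and the call counts were 1 rise and 4 falls in B6N against 3 falls in B6J. The P450 median was 0.070, 0.076 and 0.067 without B6N HFD replicate 4, B6J HFD replicate 5 and B6N control replicate 2. The P450 mean overlapped between diets in B6N, at 7.64 to 8.12 in HFD livers against 7.95 to 8.13 in control livers. It stood apart in B6J, at 7.65 to 7.86 in HFD livers against 7.90 to 8.10 in control livers. Cyp2b9 is a member of this list and the 1 rise in B6N, with effects of 3.02 in B6N and 0.04 in B6J. Its rise therefore enters the B6N HFD mean, and a mean without Cyp2b9 was not computed. Cyp3a11, the main drug-oxidising P450 of the list, fell by 1.08 in B6N and 0.79 in B6J. Cyp2c70, which in mice makes muricholic acids, fell by 0.89 in B6N (adjusted p = 1.58e-05), its B6J effect was -0.31 (adjusted p = 0.814), and the difference was -0.58 (-0.99 to -0.17).

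The other lists held from no call to 6 calls in a substrain. In endoplasmic reticulum stress and ATF4 response 21 of 27 differences were positive (median 0.19) with no member called in either substrain. Syvn1, a ubiquitin ligase of that response, had the largest difference at 0.73 (0.10 to 1.35), and Hspa5, its central chaperone, one of 0.33 (0.02 to 0.64). In glutathione and antioxidant defence 25 of 33 differences were positive (median 0.11), and 2 members fell in B6N (5 with the replicate block, and 1 rose) against 6 in B6J. The glutathione mean overlapped in B6N, at 9.36 to 9.58 in HFD livers against 9.52 to 9.74 in control livers, and stood apart in B6J, at 9.30 to 9.52 in HFD livers against 9.62 to 9.74 in control livers. So did amino acid catabolism, with 10.62 to 10.90 in B6N HFD livers against 10.75 to 11.18 in B6N control livers, and 10.69 to 10.96 in B6J HFD livers against 11.04 to 11.17 in B6J control livers. In glucose and insulin metabolism 16 of 21 were positive (median 0.16, and 0.087 without B6N HFD replicate 8), and 3 members rose in B6N (Rgs16, the growth factor binding protein Igfbp1, and Txnip, a brake on glucose uptake) against none in B6J. With the replicate block the adjusted p of Igfbp1 in B6N was 0.0868. Cholesterol synthesis (16 of 20 positive, median 0.08, and -0.01 to 0.15 without single arrays) and the circadian clock (10 of 17, median 0.01) had no call in either substrain, and their widest differences were those of Hmgcs1 at 0.53 (-0.08 to 1.14) and Dbp at -0.72 (-1.76 to 0.33). Amino acid catabolism (13 of 30 positive, median -0.02), oxidative phosphorylation (17 of 39, median -0.03), interferon response (7 of 21, median -0.06), cell cycle (16 of 25, median 0.06) and acute phase (20 of 26, median 0.08) had medians within 0.08 of 0. Of these 5 lists, amino acid catabolism had 5 falls in B6N and 3 in B6J. Acute phase had 3 rises and 1 fall in B6N and 1 fall in B6J, and the others had no call. In oxidative phosphorylation the intervals were narrow, with 35 of 39 within 1.5-fold. Within the acute phase list Lcn2, an iron-binding lipocalin, rose by 1.16 in B6N, with a B6J effect of 0.26 and a difference of 0.90 (0.26 to 1.54), and Hamp, the iron hormone hepcidin, had a difference of -0.95 (-1.71 to -0.18) with neither effect called.

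Markers of other cell types were set beside these lists. Hepatocyte markers had a median difference of 0.13 (10 of 13 positive), endothelial markers 0.10 (10 of 14), stellate cell markers 0.04 (11 of 17), lymphocyte markers -0.04 (5 of 14), bile duct markers 0.02 (3 of 6), adipocyte markers 0.13 (7 of 9), skeletal muscle markers 0.06 (6 of 9) and red blood cell markers -0.14 (0 of 3). Macrophage and Kupffer cell markers had a median of -0.21 with 6 of 24 positive, and their mean signal was 6.22 to 6.61 in B6N HFD livers, 6.17 to 6.55 in B6N control livers, 6.29 to 6.77 in B6J HFD livers and 6.23 to 6.50 in B6J control livers. Pancreatic acinar markers had a median of 0.85 with all 18 positive. No marker difference was called. Their part in the differences of the pathway lists was not tested, beyond the fit with the acinar mean as a covariate, in which the median difference of fatty acid oxidation was 0.27.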

How the data were processed

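Livers were profiled on Affymetrix Mouse Gene ST arrays. The values are the log2 signals per probe set deposited by the authors, made with RMA (Affymetrix Expression Console, version 1.1, per the submitters' processing notes). Array medians differ by strain in a way that separately normalised sets would give, so levels were compared only between B6N and B6J. Of 35556 probe sets, 21789 had 1 gene symbol, 1621 had several and 12146 were not listed; 21698 of the first matched the RefSeq gene table by Entrez ID. For the 999 genes with more than 1 probe set the brightest was used. Arrays give no read depth and no detection call was used, so precision is limited by the number of arrays.

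Each of the 19938 genes was fitted with limma 3.58.1 in R 4.3.3 with 1 mean for each of 8 groups over 72 arrays (64 residual degrees of freedom) and eBayes. Tests were two-sided, Benjamini-Hochberg adjusted over all genes of a contrast, and called at 0.05. An adjusted p comes from this fit unless an alternative is named beside it. Intervals are 95% and unadjusted. The fit was tested on simulated data. Nothing says that arrays come from separate litters or days, so p-values cover only the spread among these arrays.

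Named genes were the 5 of smallest p in each direction of the difference, the 10 largest called rises and falls of the mean effect, the extreme members of each list, Nnt, 12 genes known from earlier results and the 5 genes most like Cyp2b9. Other list members are named as examples of the counts, chosen with their values in view. The genes, the 29 lists and the tests were chosen with earlier results of these data known. Alternatives were the arrays in the fit, normalisation, probe set choice, a filter on low values, array weights, the variance prior, the replicate number as a block, the acinar mean as a covariate and leaving out each array. The array sets from the first residual component and the removal of the 3 arrays of highest acinar signal were added after seeing the data. Over 45 pairs of arrays with the same replicate number in different groups, the correlation of deviations from the group means ran from -0.38 to 0.50, and 34 exceeded 0.1. All 8 pairs of B6N HFD with B6N control exceeded it (0.10 to 0.46), so the numbers were taken to pair the B6N arrays; 5 of 7 pairs did in B6J (-0.29 to 0.50), so they were not taken to pair B6J or the 4 groups together. Pairs between the substrains exceeded 0.1 too, as in 6 of 8 pairs of B6N HFD with B6J control and 6 of 8 of B6N control with B6J control. The replicate block had a term per number shared by all 31 B6 arrays, so it did not pair the B6N arrays alone. No fit did so, and the B6N counts and p-values come from the unpaired fit unless an alternative is named. The array sets also follow the numbers.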

Additional observations from a re-analysis of the deposited data

Results flagged for a closer look

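In 13 of 144 groups examined (36 genes), 1 array lay apart from the rest by the gap between it and its nearest neighbour over the range of its group. Chance would mark about 5% of groups.

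Among B6N HFD livers, Cyp4a14 was low on replicate 8 at 9.94 (next 11.07), and Cyp2b13 was high on replicate 6 at 4.16. Among B6N controls, Cyp2b9 was high on replicate 2 at 5.65 (next 4.39), Cyp2b10 on replicate 6 at 5.02, Rgs16 on replicate 4 at 7.23 and Etnppl on replicate 1 at 10.53, and Gsta4 was low on replicate 8 at 9.87. Among B6J HFD livers, replicate 5 was high in both Acmsd at 8.03 and Cyp2c55 at 5.32, genes that fell on HFD, and replicate 4 was high in Anxa2 at 6.31. Among B6J controls, Rgs16 was high on replicate 6 at 7.96 (next 5.70), an array that also had the highest acinar mean of its group (10.88), and on replicate 7 Crat was low at 7.33 and Cyp2b13 high at 3.33. No explanation of these values was tested.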

How the results depend on the processing

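Of 44 alternatives to the count of genes with a different diet response (0), 39 left it at 0. It was 2 with array weights (Cyp2b9 and Pdk3) and 1 in the first set of arrays alone, and 0 to 1 when single arrays were left out. The difference of Cyp2b9 was positive throughout, at 2.65 to 3.51 without single arrays, with adjusted p from 1.03e-05 (without B6N HFD replicate 8) to 0.201 (without B6N HFD replicate 5); it was called also without B6N HFD replicate 4 (0.006) and without B6N control replicate 2 (0.0108). Its adjusted p was 0.048 with array weights, 0.0418 in the first set of arrays (3.34) and 0.962 in the second (2.82), 0.0515 after quantile normalisation, 0.0534 after median centring, 0.058 with every probe set, 0.141 with a trended robust prior, 0.258 without the 3 arrays of highest acinar signal and 0.909 with the acinar covariate. It dropped out when only brighter genes were tested. Rescaling moved the median difference of all genes by 0.0033 and 0.0104.

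The B6N call count (183) was 390 with the array set as a block and 67 in the first set, and 143 to 187 without single arrays. The B6J count (59) was 89 in the fit of B6 arrays only, 129 with array weights, 122 with the array set as a block, 10 in the second set, 29 without the 3 arrays and 38 to 61 without single arrays, the lowest without B6J control replicate 5. The count for the mean (288) was 461 with array weights, 558 with the array set as a block, 182 and 131 in the 2 sets and 256 to 309 without single arrays. The correlation of effects over all genes (0.408) was 0.52 over brighter genes, 0.20 in the second set, 0.279 without the 3 arrays and 0.338 to 0.469 without single arrays. The fewer calls in a set go with fewer arrays. The array set comes from the deviations of these same arrays, so as a block it takes out spread by construction. The cause of the other moves was not tested.

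With the replicate number as a block in a fit of the 31 B6 arrays, the B6N, B6J and mean counts were 311, 132 and 514. The difference count was 0 and the adjusted p of Cyp2b9 0.318. The block was shared by all 4 groups, though the numbers were taken to pair only the B6N arrays. Of the 31 arrays, 10 correlated best with an array of their own number.

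Of 3019 alternatives for single genes, 2984 kept direction and side of the threshold. The uncalled differences of 6 genes changed sign: the interaction of Ccnd1 (-0.061 in the first set, -4.6e-05 without the 3 arrays), the interaction of Cyp17a1 (0.0021 with median centring, 0.0034 with the replicate block, 0.074 with the set as a block, 0.091 and 0.23 in the 2 sets, -0.090 to 0.11 without single arrays), the interaction of Cyp2c55 (0.001, first set), the interaction of Fabp2 (0.39, second set), the interaction of Msmo1 (-0.29 in the second set, -0.015 to 0.15 without single arrays) and the interaction of Orm2 (-0.46, first set). Calls of the mean effect were lost for Cyp2b9 in the second set (adjusted p = 0.539), Cyp4a14 in either set (0.108 and 0.172) and Cyp7a1 in the second set (0.527). Across all 44 alternatives the median difference stayed at 0.21 to 0.36 for fatty acid oxidation, 0.16 to 0.28 for lipid droplet proteins and -0.27 to -0.09 for the male-biased list, while those of cholesterol synthesis, bile acid, P450, clock, amino acid and oxidative phosphorylation genes took both signs.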

Other observations

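The 6 genes given here were chosen after their values were seen, and all 6 had the more negative fitted effect in B6N. H2-Ab1, a chain of the class II molecule, had log2 signals of 7.53 to 7.97 in B6N HFD livers (median 7.58) and 7.54 to 8.77 in B6N control livers (median 8.12), against 7.55 to 8.56 in B6J HFD livers (median 8.22) and 7.23 to 8.25 in B6J control livers (median 7.94). The groups overlapped within each substrain. Its effects were -0.50 in B6N and 0.25 in B6J, a difference of -0.75 (95% interval -1.18 to -0.32). The partner chain H2-Aa had a difference of -0.76 (-1.22 to -0.29), H2-Eb1 one of -0.63 (-1.06 to -0.19) and Cd74, the invariant chain, one of -0.60 (-1.22 to 0.01). H2-DMa, which loads peptides, and Ciita, the class II transactivator, had smaller differences of -0.21 (-0.56 to 0.15) and -0.15 (-0.37 to 0.07). None of these differences was called in the limma fit, and macrophage and Kupffer cell markers, among them Cd74, had a median difference of -0.21 with 6 of 24 positive. Their part in these values was not tested.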
